A study of Mus musculus with 6 samples.

Results

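The genes described here are core genes of autophagy and of the transcription factors that govern it, measured in mouse fibroblasts that carry the Delta9 allele of Lmna and in wild-type (WT) fibroblasts. They are the ATG8 family genes Map1lc3a, Map1lc3b, Gabarap, Gabarapl1 and Gabarapl2, the receptor gene Sqstm1, the initiation genes Ulk1 and Becn1, and the transcription factor genes Tfeb and Tfe3. They were chosen by gene symbol, with no measured value in the rule, and all 10 were found among the 18193 genes that had a probe set annotated to a single symbol. Each gene is represented by its brightest probe set, judged by the mean of the 6 arrays. Lmna encodes lamins A and C of the nuclear lamina, and mice with the Delta9 allele are known as a model of progeria. RNA of 3 Delta9 and 3 WT samples was hybridised to Affymetrix arrays, 1 array per sample, and the values are on a log2 scale. Both groups were primary fibroblasts of the strain C57bl6X129S3/J, derived from siblings, at passage 3 and kept 72 hours without serum. All 6 samples were therefore serum-starved, and no sample kept in serum was analysed here. The labels do not say whether the Delta9 lines carried 1 or 2 copies of the allele, and their term adult for the cells stands beside post-natal in the design text. The samples are called independent, but the number of animals is not given, so the p-values speak for the spread of these 6 samples. Some arrays stood apart from the others of their group: Delta9 replicate 3 and WT replicate 1 in their spike-in controls, and WT replicate 3 in its low macrophage markers and 18S signal.

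Macroautophagy encloses cytoplasm in a double membrane, the autophagosome, which then fuses with lysosomes. The ULK1 kinase complex starts the process, the Beclin 1 complex makes the lipid signal that recruits later factors, and ATG8 proteins are attached to the lipid of the growing membrane, where receptors such as p62, the product of Sqstm1, bind both them and ubiquitinated cargo. When mTORC1 is inactive, as after the loss of nutrients or growth factors, TFEB and TFE3 move to the nucleus and switch on lysosomal and autophagy genes through an E-box motif. Much of this control acts on proteins, through phosphorylation, lipidation and location, which an RNA array does not measure.

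None of the 10 genes differed between Delta9 and WT past the threshold, an adjusted p under 0.05 in limma over all genes. Their differences were small, between -0.15 and 0.25 log2, with 7 higher and 3 lower in Delta9 and a median of 0.06, against a median of -0.01 over all genes. The count past the threshold was 0 of 10, where 0.0605% of all genes passed (11 genes, 1 higher and 10 lower). By unadjusted p under 0.05 the count was also 0 of 10, against 10.6% of all genes. The groups did not overlap for 3 of the 10 genes, Map1lc3b and Gabarapl2 higher and Map1lc3a lower in Delta9, and for 17.3% of all genes. The 95% intervals give, gene by gene, the range of change left by this fit for the probe set used. They make no allowance for the number of genes. They do not cover the other probe sets, some of which differed by more, as given below. All 10 intervals lay within a 2-fold change in either direction, and 9 of 10 lay within a 1.5-fold change, the exception being Sqstm1. Over all genes 88.4% of intervals lay within 2-fold and 62.4% within 1.5-fold. The median SD of the 10 genes within groups was 0.11 log2, against 0.18 over all genes. Of the 10, only Sqstm1 (0.22) and Tfeb (0.25) lay above that 0.18. The 10 genes and all genes were not matched for brightness.

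**Figure D1:**
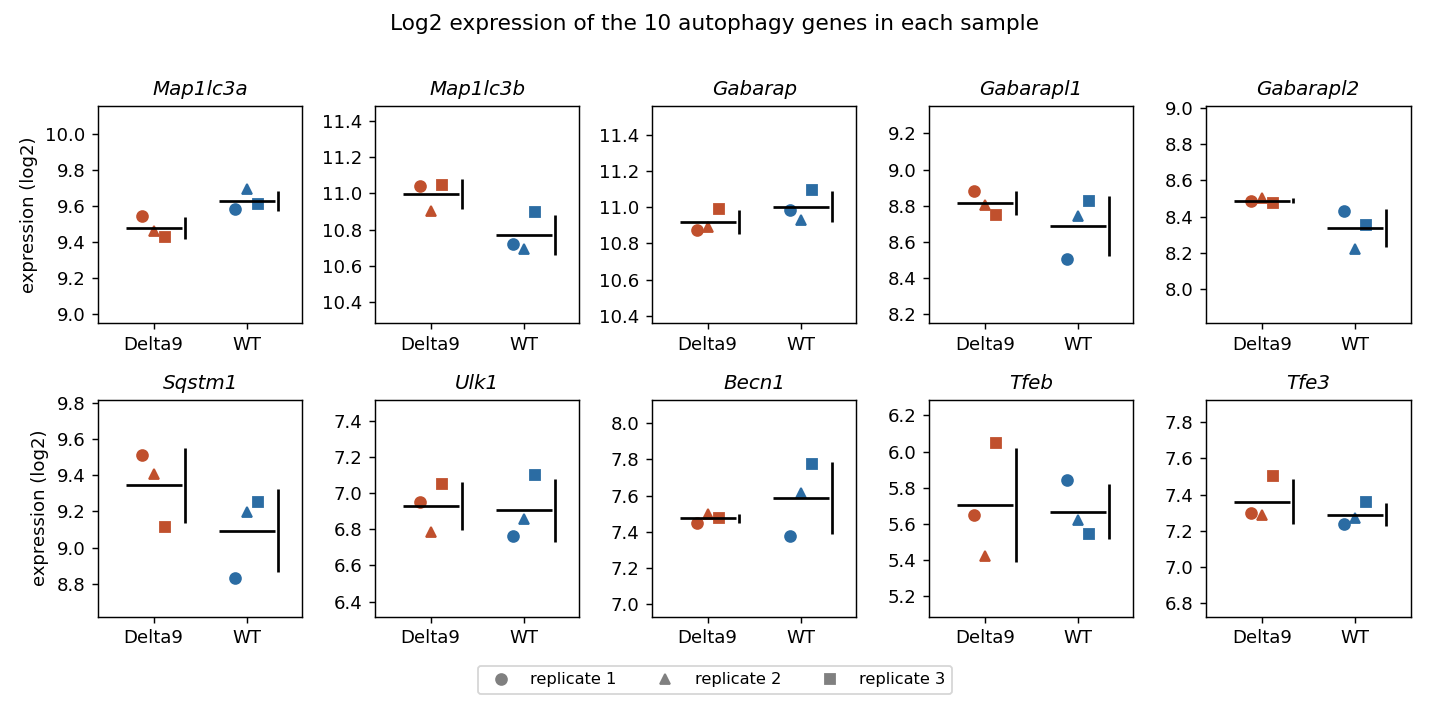
Log2 expression (y axis, each panel spanning 1.2 units) of the 10 genes in the 3 Delta9 samples (left, red) and the 3 WT samples (right, blue). Points are samples, horizontal lines are means and vertical lines are SD; Map1lc3b, Gabarapl2 and Map1lc3a are the 3 genes whose groups do not overlap.

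Of the ATG8 family, Map1lc3b encodes LC3B, the form most used as a marker of autophagosomes. Map1lc3b read 11.04, 10.90 and 11.05 in Delta9 replicates 1 to 3, against 10.72, 10.69 and 10.90 in WT. The lowest Delta9 value lay only just above the highest WT value, that of replicate 3. Its difference was 0.23 log2 (SE 0.10), or 1.17-fold with a 95% interval of 0.99 to 1.39, and its adjusted p was 0.493. Map1lc3b had the lowest unadjusted p of the 10 genes, 0.0629. The other 3 probe sets of Map1lc3b differed by 0.00, 0.13 and 0.14, so the gene's probe sets were all on the higher side but the other 3 by less, and 1415928_a_at showed nearly none (9.21 in Delta9 and 9.20 in WT).

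Map1lc3a, which encodes the related LC3A, lay on the other side. Map1lc3a read 9.54, 9.46 and 9.43 in Delta9, against 9.58, 9.69 and 9.61 in WT. All 3 Delta9 values were below all WT values, by a narrow margin. The difference was -0.15 (SE 0.11), or 0.90-fold with an interval of 0.76 to 1.07 (adjusted p 0.654). The probe set used, 1447883_x_at, is of a type that can cross-hybridise, and the other one, 1451290_at, differed by -0.23 (SE 0.16).

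The GABARAP branch of the family acts mostly in later steps, closure of the autophagosome and its fusion. Gabarapl2 read 8.49, 8.50 and 8.47 in Delta9, against 8.43, 8.22 and 8.36 in WT. The 3 Delta9 values were nearly equal (SD 0.02) and the WT values more spread (SD 0.10). Its difference was 0.15 (SE 0.12, adjusted p 0.687), 1.11-fold with an interval of 0.92 to 1.35. Gabarapl1, whose transcription is known to respond to FoxO factors, read 8.88, 8.81 and 8.75 in Delta9, against 8.50, 8.74 and 8.82 in WT. The groups overlapped, because WT replicate 3 stood above 2 of the Delta9 samples. The difference of Gabarapl1 was 0.12 (SE 0.13, adjusted p 0.774), and that of its second probe set, 1416418_at, was 0.36 (SE 0.18). Gabarap itself read 10.87, 10.89 and 10.99 in Delta9, against 10.98, 10.93 and 11.10 in WT. Its values overlapped, and its difference of -0.08 (SE 0.10, adjusted p 0.788) had the narrowest interval of the 10 genes, 0.81-fold to 1.10-fold.

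Sqstm1 encodes p62, which is itself degraded by autophagy and is induced by the stress factor NRF2. Sqstm1 read 9.51, 9.41 and 9.11 in Delta9, against 8.83, 9.20 and 9.25 in WT. Delta9 replicate 3 was low and stood among the WT values, and WT replicate 1 was lower than all others. The difference of Sqstm1 was 0.25 (SE 0.17, adjusted p 0.635), or 1.19-fold with an interval of 0.90 to 1.56. It was the largest of the 10 genes with all samples, but not without Delta9 replicate 1 (0.17), Delta9 replicate 2 (0.22) or WT replicate 1 (0.12), nor when probe sets were averaged (0.17) or those ending in _x_at and _s_at were left out, where Gabarapl1 differed by 0.36. It was 0.37 without Delta9 replicate 3. Its range over the 6 arrays, 0.68 log2, was also the widest. The other probe set, 1444021_at, was dim, at 2.46 in Delta9 and 2.37 in WT.

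The lowest Sqstm1 value of each group came from an array that stood apart in its spike-in controls. Poly-A transcripts added to RNA before labelling averaged 5.20 log2 on Delta9 replicate 3 and 4.85 on WT replicate 1, against 5.64 to 6.10 on the other 4 arrays. The split into 2 parts was drawn from these data, at the widest gap between the 6 means. That gap was 0.44 log2, and the next, between Delta9 replicate 3 and WT replicate 1, was 0.35. Sqstm1 was lower on the array of lower spike-in signal by 0.35 log2 in Delta9 and by 0.40 in WT, measured against the other arrays of the same group. The difference between Delta9 and WT was alike in both parts, 0.23 within the 4 arrays of higher signal and 0.28 between the 2 arrays of lower signal, a single pair with no test. With this split as a block the SE of Sqstm1 was 0.08, its unadjusted p 0.0166 and its adjusted p 0.173. In the same fit Map1lc3b had an unadjusted p of 0.0359, so 2 of 10 genes were under 0.05, where 18.1% of all genes were, and 0 passed the threshold. The same 2 arrays had the highest macrophage marker mean of their groups, 10.5 against 9.94 and 10.2 on the other Delta9 arrays and 10.0 against 7.81 and 9.33 on the other WT arrays. They also had the highest 18S signal, 10.4 on Delta9 replicate 3 and 10.1 on WT replicate 1. With the macrophage mean as a covariate, the difference of Sqstm1 was 0.47 (SE 0.18, unadjusted p 0.0380, adjusted p 0.576), and 8.61% of all genes had an unadjusted p under 0.05. The part that RNA quality, handling or macrophages play in the low Sqstm1 values was not tested beyond these fits.

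Ulk1 encodes the kinase that starts autophagy and is held back by mTORC1. Ulk1 read 6.95, 6.79 and 7.05 in Delta9, against 6.76, 6.86 and 7.10 in WT. The groups overlapped fully, with both the lowest and the highest value in WT. The difference was 0.02 (SE 0.15, adjusted p 0.966), with an interval of 0.79-fold to 1.30-fold. It turned to -0.03 after quantile normalization, so Ulk1 has no direction here. Its other probe set, 1416504_at, was dim (3.78 in Delta9 and 3.49 in WT).

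Becn1 encodes Beclin 1, the scaffold of the lipid kinase complex. Becn1 read 7.45, 7.50 and 7.48 in Delta9, against 7.37, 7.61 and 7.77 in WT. The Delta9 values lay close together (SD 0.02), inside the WT range (SD 0.20). Its difference was -0.11 (SE 0.15, adjusted p 0.814), an interval of 0.73-fold to 1.17-fold. Becn1 was the gene whose probe sets disagreed in sign. The second in brightness, 1460320_at, differed by 0.21 (SE 0.20), as did the dim 1430358_at by 0.19, whereas the dim 1437006_x_at and 1435219_x_at differed by -0.24 and -0.12. Over the 22 probe sets of the 10 genes, 0 passed the threshold and 0 had an unadjusted p under 0.05 (limma over all probe sets). Over all genes, each by 1 probe set, these shares were 0.0605% and 10.6%. Of the 12 probe sets not used above, 10 had the sign of the one used. Several of the 12 were dim, and 1415928_a_at of Map1lc3b differed by 0.00, so this count of signs carries little weight.

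**Figure D2:**
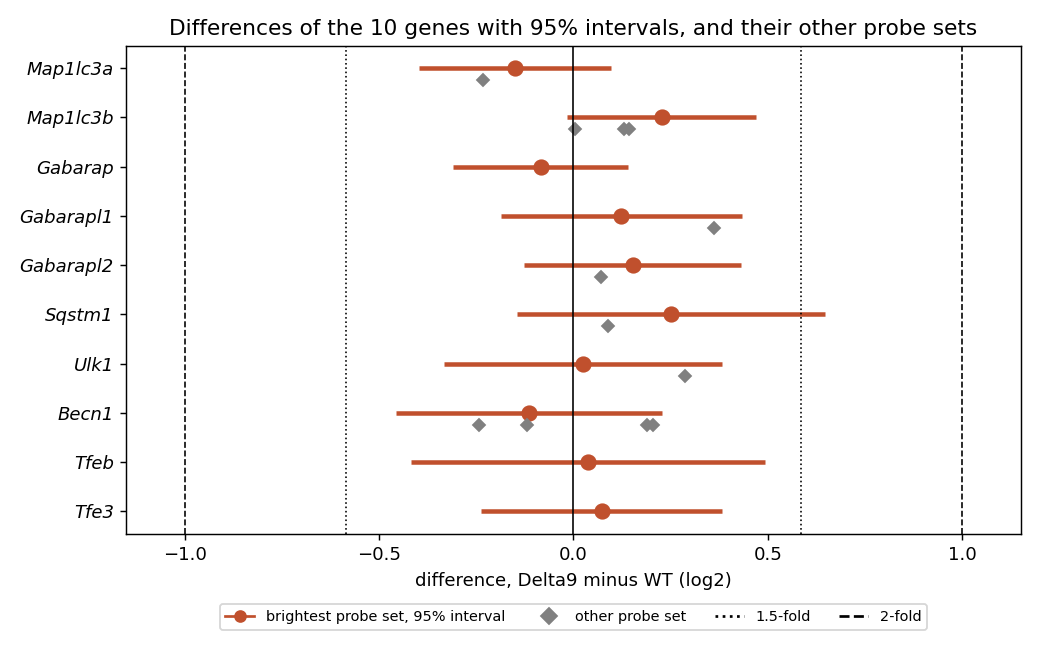
Difference of Delta9 minus WT (x axis, log2) for the 10 genes, with 95% intervals in red for the brightest probe set and grey diamonds for the other 12 probe sets. Every interval lies inside the dashed lines at 2-fold, Sqstm1 is the one that crosses a dotted line at 1.5-fold, and Becn1 has probe sets on both sides of 0.

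Tfeb and Tfe3 encode basic helix-loop-helix factors of the MiT family. Tfeb read 5.65, 5.42 and 6.05 in Delta9, against 5.84, 5.62 and 5.54 in WT. The highest value of each group was on its array of lower spike-in signal, by 0.51 log2 in Delta9 and 0.26 in WT against the other arrays of the group, the opposite of Sqstm1. The difference of Tfeb was 0.04 (SE 0.19, adjusted p 0.959), with an interval of 0.75-fold to 1.41-fold; it was nearly 0 after quantile normalization, at -0.00052. Tfe3 read 7.29, 7.29 and 7.50 in Delta9, against 7.24, 7.27 and 7.36 in WT. Its groups overlapped, with a difference of 0.07 (SE 0.13, adjusted p 0.874) and an interval of 0.85-fold to 1.30-fold. Both genes have a single probe set here.

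The other MiT factors, Mitf and Tfec, can bind the same motif. Tfec, which is known mainly from macrophages, read 5.02, 4.11 and 4.86 in Delta9, against 3.18, 3.25 and 2.78 in WT. The groups were well apart, and all 3 WT values lay below the arrays' medians of 3.36 to 3.43 over all probe sets. The difference of Tfec was 1.59 (SE 0.26) and did not pass (adjusted p 0.115). With no detection calls, it is not known whether WT had a measured level of Tfec, and no fold is given. Mitf, the one other gene of that list, read 7.78, 7.47 and 8.73 in Delta9, against 8.07, 7.38 and 6.89 in WT, with a difference of 0.55 (SE 0.40) and overlapping groups. Macrophage markers were plainly present in these cultures. The mean level of 15 of them was 9.94 to 10.5 log2 in Delta9 and 7.81 to 10.0 in WT; all 15 were higher in Delta9 (median 1.09). None passed the threshold (limma), 4 of 15 had an unadjusted p under 0.05, or 26.7% against 10.6% of all genes, and 7 of 15 did not overlap between the groups, or 46.7% against 17.3%. The mean in WT was 10.0, 9.33 and 7.81, so WT replicate 3 was far below the others, and without it the median difference of the 15 was 0.52. Over the other samples left out in turn it was 1.02 to 1.66. The means over the 6 arrays lay between 6.84 for Fcgr1, an Fc receptor gene, and 12.2 for Lyz2, macrophage lysozyme. The 9 fibroblast markers averaged 10.5 to 10.7 in Delta9 and 10.9 to 11.1 in WT, all 9 lower in Delta9 (median -0.24). Of these 9, 0 passed the threshold (limma). An unadjusted p under 0.05 was found for 2 of 9, or 22.2% against 10.6% of all genes. The groups did not overlap for 1 of 9, or 11.1% against 17.3%. In bulk RNA, more cells of a type and more RNA per cell cannot be told apart.

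Of 57 further autophagy genes, in 6 lists from the ULK1 complex to autophagosome fusion, 0 passed the threshold in either direction (limma). An unadjusted p under 0.05 was found for 6 genes (5 higher, 1 lower), 10.5% of the 57 against 10.6% of all genes, and 9 did not overlap, 15.8% against 17.3%. Their median difference was 0.07, with 38 higher and 19 lower. In the fusion list, 12 of 14 genes had higher values in Delta9 (median 0.12). Of the 14, 3 had an unadjusted p under 0.05, or 21.4% against 10.6% of all genes. The groups did not overlap for 21.4%, against 17.3%. That list is 1 of the 6, and no list was tested as a set.

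Some genes of lowest p in these lists, none past the threshold, had differences well above the 0.25 of Sqstm1. Plekhm1, an adaptor that joins Rab7, tethers and ATG8 proteins at the lysosome, read 6.81, 6.37 and 7.20 in Delta9, against 6.19, 6.06 and 6.06 in WT, a difference of 0.69 (SE 0.22, adjusted p 0.360). Atg5, which with Atg12 promotes the lipidation of ATG8 proteins, read 6.86, 6.92 and 6.94 in Delta9, against 6.20, 6.65 and 5.98 in WT, a difference of 0.63 (SE 0.19, adjusted p 0.343). The groups were apart for both, and the other 2 probe sets of Atg5 differed by 0.53 and 0.25. Atg101, a subunit of the ULK1 complex, differed by 0.50 (SE 0.17), the lipid kinase gene Pik3c3 by 0.37 (SE 0.19), the receptor Tollip by 0.32 (SE 0.17) and the lipid transfer gene Atg2a by 0.13 (SE 0.16). On the lower side, Wipi1, which binds the lipid signal on the forming membrane and is a known TFEB target, read 8.10, 8.25 and 8.41 in Delta9, against 8.58, 8.50 and 8.87 in WT. Its groups did not overlap, with a difference of -0.40 (SE 0.15, adjusted p 0.428). The other genes of lowest p on the lower side overlapped between the groups. Ccpg1, a receptor for the endoplasmic reticulum, differed by -0.44 (SE 0.26) and the fusion SNARE Stx17 by -0.29 (SE 0.19). Ambra1 differed by -0.16 (SE 0.17) and the ULK1 scaffold Rb1cc1 by -0.14 (SE 0.18). Atg3, which transfers ATG8 to lipid, differed by -0.12 (SE 0.12).

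The kinase mTORC1 and the Rag and Ragulator proteins that recruit it to the lysosome control where TFEB and TFE3 reside. Of 20 such genes, 0 passed the threshold (limma), 12 had higher and 8 lower values, and 3 were under an unadjusted p of 0.05, or 15% against 10.6% of all genes. The groups did not overlap for 20% of them, against 17.3%. Rragd, a Rag GTPase known as a target of TFEB-type factors, read 4.81, 4.73 and 5.86 in Delta9, against 4.17, 4.36 and 3.63 in WT. Its groups did not overlap, and its difference was 1.08 (SE 0.34, adjusted p 0.352), whereas its other 2 probe sets were at the bottom of the scale. Rptor, the mTORC1 subunit raptor, read 6.20, 6.21 and 5.99 in Delta9, against 6.18, 6.36 and 6.49 in WT. Its difference was -0.21 (SE 0.15), and the groups overlapped through WT replicate 1.

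**Figure D3:**
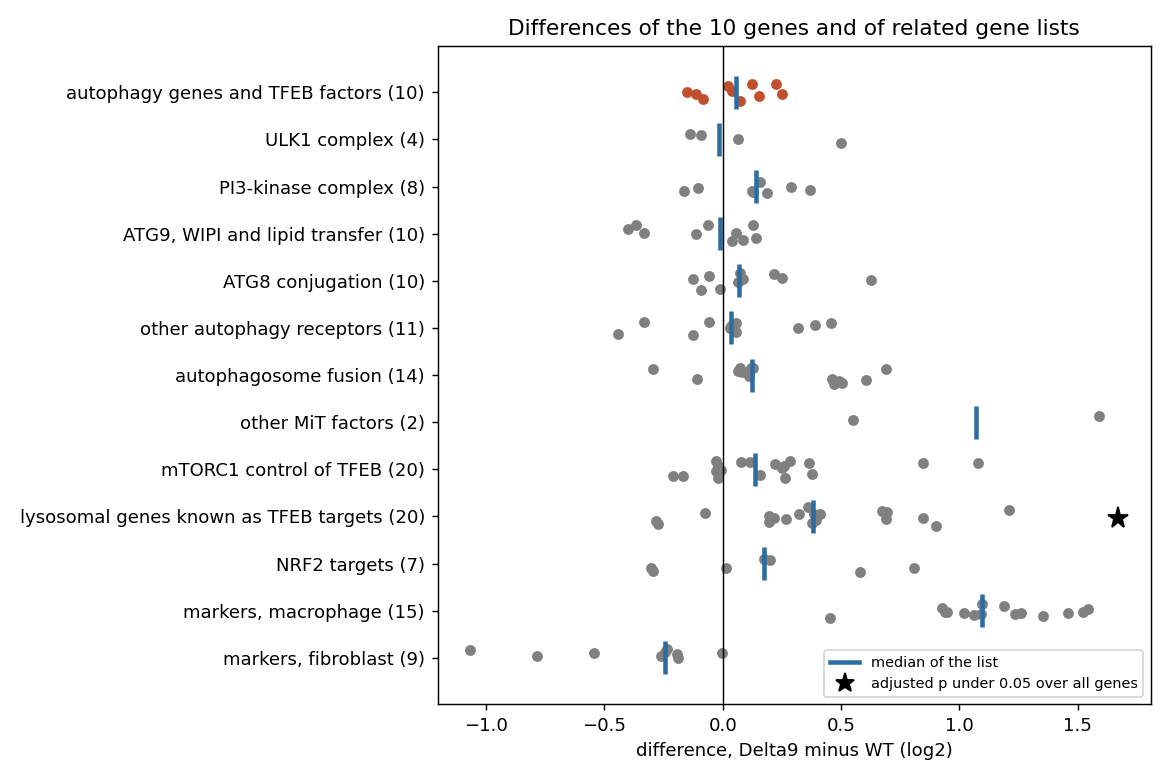
Difference of Delta9 minus WT (x axis, log2) for each of the 10 genes (red, top row), for the genes of 10 related lists and for 2 marker lists (grey), with list medians as blue bars and the number of genes in parentheses. The 10 genes sit between -0.15 and 0.25, and the star marks Gla, the gene in these lists past the threshold.

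Lysosomal genes known as TFEB targets were mostly higher in Delta9; whether they differ from the 10 genes was not tested. Of 20 measured, 17 had higher and 3 lower values, with a median difference of 0.38; 9 of 20 had an unadjusted p under 0.05, or 45% against 10.6% of all genes, and 60% did not overlap, against 17.3%. Past the threshold, 1 rose and 0 fell. That gene was Gla, the lysosomal alpha-galactosidase A, at 7.07, 7.15 and 7.03 in Delta9 against 5.41, 5.49 and 5.33 in WT (difference 1.67, SE 0.13, adjusted p 0.0109). With each sample left out in turn, Gla passed in 1 of 6 cases, without Delta9 replicate 3 (adjusted p 0.0161). In the other 5 it did not pass, with an adjusted p of up to 0.0862, and over all 6 its difference stayed between 1.63 and 1.71. With its 3 probe sets averaged, Gla differed by 0.82 (adjusted p 0.0569). Among those lower, Gaa, the lysosomal alpha-glucosidase, differed by -0.27 (SE 0.13). The mean level of the 20 genes was 8.46, 8.41 and 8.73 in Delta9, against 8.13, 8.06 and 8.03 in WT. The macrophage marker mean of the same arrays was 10.2, 9.94 and 10.5 in Delta9, against 10.0, 9.33 and 7.81 in WT. In a fit with the macrophage marker mean of each array as a covariate, the median difference of the 20 genes was 0.30 and Gla did not pass (adjusted p 0.120, difference 1.64). Macrophages are rich in lysosomes, and their part in this difference was not tested beyond that fit.

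**Figure D4:**
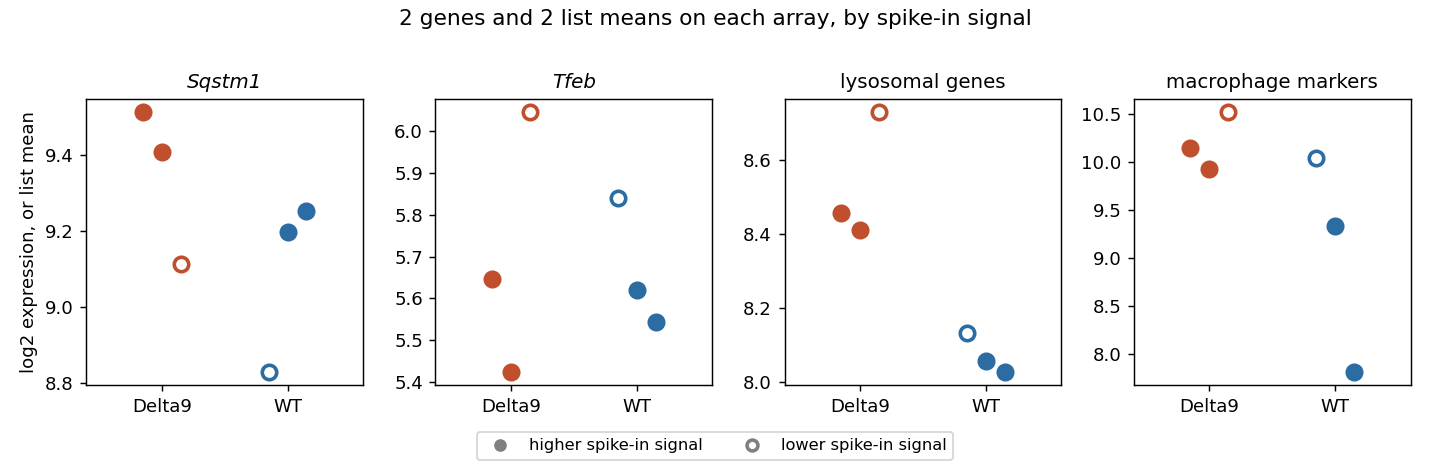
Log2 expression of Sqstm1 and Tfeb and the mean log2 level of 20 lysosomal genes and 15 macrophage markers (y axes differ between panels) on each array, Delta9 left and WT right; open circles mark the 2 arrays with lower spike-in controls. Those arrays are lowest of their group for Sqstm1 and highest for Tfeb, while the lysosomal mean is apart between the groups and the macrophage mean is not.

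The NRF2 targets, which share that factor with Sqstm1, had 5 of 7 genes higher and 0 past the threshold in limma. By unadjusted p under 0.05 there was 1 gene in each direction, 28.6% of the 7 against 10.6% of all genes. The groups did not overlap for 28.6% of the 7, against 17.3% of all genes. Hmox1, heme oxygenase 1, read 7.50, 7.31 and 7.71 in Delta9, against 6.52, 6.97 and 6.60 in WT, a difference of 0.81 (SE 0.18, adjusted p 0.222). Its groups were apart. With the macrophage mean as a covariate its difference was 0.75 (SE 0.23, adjusted p 0.573). Slc7a11, the cystine transporter, was dim and differed by -0.29 (SE 0.09).

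The promoters are shown because TFEB-type factors act on their targets through a motif found there. RefSeq start sites of build GRCm38.p6 gave windows of 300 bases, 250 before and 50 after the start, for 8 of the 10 genes in 11 windows, and for 18 of the 20 lysosomal genes in 22 windows. The E-box CACGTG, its own reverse complement, was found in 0 of 11 windows of the 10 genes and in 12 of 22 lysosomal windows, 54.5%, against 7.15% of all 32851 windows. Its extended form TCACGTGA, which contains it, was in 0 of 11 and in 7 of 22, or 31.8%, against 0.974% of all. The lysosomal list is of genes known as TFEB targets, so its share is no independent finding. Of the windows of further autophagy genes, 10 of 63 held CACGTG, or 15.9%. The antioxidant response core TGACNNNGC, searched on both strands, was in 1 of 11 windows, that of Map1lc3b, against 12.4% of all. A match is a string of letters, and a window without one says nothing of more distant sites.

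The first sequence below is the promoter of Map1lc3b, the member of the family with the lowest p, and its capitals mark the TGACNNNGC match at positions 5 to 13 after the start. The second is that of Sqstm1, the gene of the widest range over the arrays, with no match to these motifs. The third is that of Gla, the gene that rose, with capitals for its 2 matches to TCACGTGA, at -228 to -221 and -195 to -188 from the start. The windows are chr8:121590188-121590487 on the plus strand, chr11:50210771-50211070 on the minus strand and chrX:134600956-134601255 on the minus strand, and each sequence runs 5′ to 3′ along its gene.
Map1lc3b: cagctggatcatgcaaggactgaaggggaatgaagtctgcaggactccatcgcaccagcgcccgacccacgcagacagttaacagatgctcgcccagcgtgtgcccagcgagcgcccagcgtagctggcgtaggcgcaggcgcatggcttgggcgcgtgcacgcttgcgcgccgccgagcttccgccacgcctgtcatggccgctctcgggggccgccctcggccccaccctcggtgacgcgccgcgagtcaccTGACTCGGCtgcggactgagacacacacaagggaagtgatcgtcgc
Sqstm1: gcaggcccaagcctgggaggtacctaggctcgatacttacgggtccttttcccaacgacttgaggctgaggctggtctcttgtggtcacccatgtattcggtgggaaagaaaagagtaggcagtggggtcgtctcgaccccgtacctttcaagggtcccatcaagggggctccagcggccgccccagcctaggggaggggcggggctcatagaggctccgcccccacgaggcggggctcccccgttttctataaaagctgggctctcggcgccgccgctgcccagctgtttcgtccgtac
Gla: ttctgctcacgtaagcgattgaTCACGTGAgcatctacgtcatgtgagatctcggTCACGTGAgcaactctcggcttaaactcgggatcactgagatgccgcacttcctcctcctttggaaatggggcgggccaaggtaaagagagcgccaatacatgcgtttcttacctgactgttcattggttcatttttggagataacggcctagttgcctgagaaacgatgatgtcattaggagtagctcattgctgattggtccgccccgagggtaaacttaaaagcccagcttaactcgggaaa

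By likeness over the 6 arrays, among 9095 genes brighter than the median gene, those closest to Map1lc3b were Inka1, Samhd1 and Tk2, with Pearson coefficients of 0.988, 0.987 and 0.978. Those closest to Sqstm1 were Panx1, Suclg1 and Gtf2f1, with 0.998, 0.996 and 0.996. With so few arrays and so many genes, such values are a description of these arrays, which share processing and spike-in signal. None of the 6 passed the threshold between Delta9 and WT.

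The label of the Delta9 samples was checked on Lmna itself. Its brightest probe set, 1421654_a_at, read 7.07, 6.95 and 6.11 in Delta9, against 8.35, 8.89 and 8.78 in WT. That probe set differed by -1.96 (SE 0.28) and did not pass (adjusted p 0.113 in limma over all probe sets). Of its other 4 probe sets, 1457670_s_at differed by -3.42 (SE 0.22, adjusted p 0.00401 in limma over all probe sets), 1425472_a_at by -2.05 and the dim 1426868_x_at by -0.54, whereas the dim 1452212_at differed by 0.22. Whether any of these probes fall inside the altered stretch is not known here. Among markers of other cell types, 5 of 6 epithelial, 2 of 5 endothelial, 3 of 6 skeletal muscle and 3 of 4 adipocyte markers had means under 4 log2. The remaining adipocyte marker, Fabp4, averaged 9.28. The excess of 3′ over 5′ signal for the Gapdh control was 0.23 to 0.57 in Delta9 and 0.49 to 0.57 in WT, and that for the actin control 0.51 to 0.84 in Delta9 and 0.82 to 1.41 in WT. The 18S signal was 9.37 to 10.4 in Delta9 and 7.86 to 10.1 in WT. WT replicate 3 had both the highest actin excess and the lowest 18S signal.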

How the data were processed

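The authors deposited log2 values of 45101 probe sets on 6 Affymetrix arrays; per the labels' protocols RNA was extracted with Trizol and labelled with the 1-cycle kit. That the base is 2 was judged from the values' range. How probe sets were summarised, background-corrected and normalized is not given in the sources used here. Detection calls are not in the table, and the number of arrays limits the precision. After leaving out 64 control probe sets, 34945 probe sets had 1 gene symbol in the platform annotation, 932 had several and 9160 are unnamed here. Probe sets differ in affinity, so a level read on one is no measure of RNA against another.

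Delta9 and WT were compared with limma 3.58.1 in R 4.3.3 (lmFit, eBayes with trend), with no filter or pseudocount, and Benjamini-Hochberg adjustment over 18193 genes. Differences are log2 of Delta9 minus WT with the moderated standard error (SE), and intervals are at 95%. The model was tested on simulated data. The 10 genes, the lists and the named genes (all 10, Lmna, those past the threshold in each list, the lowest p in each direction, and the 3 genes most like Map1lc3b and Sqstm1) were chosen with earlier results of these data known. Mitf, Fcgr1, Lyz2, Fabp4 and other probe sets were named after their values were seen. Of 168 list symbols, 161 were analysed. Replicate numbers were checked for pairing: the deviations of same-numbered samples correlated at -0.40, 0.17 and -0.43, so they were not taken as pairs. Alternatives are in the closing section; those on list medians, Gla, Hmox1 and Tfec were added after seeing the data. Figures were drawn with matplotlib 3.10.9.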

Additional observations from a re-analysis of the deposited data

How the results depend on the processing

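For the 10 genes, the count past the threshold stayed at 0 in every alternative run. Of 182 alternative values of their differences, 166 kept their sign and 0 passed in limma (lowest adjusted p 0.173). Many of these signs could not turn. The blocks, the other variance settings and the removal of dim genes leave each difference as it was. Changes in the choice of probe sets do the same for genes with a single one. The count over all genes, 11, moved more: it was 139 with array weights, 149 with the spike-in split as a block, 61 within the 4 arrays with more spike-in signal, 2 with the macrophage covariate, 48 at an adjusted p of 0.10, and with single samples left out 1 to 81 (81 without Delta9 replicate 3; 2 and 5 without Delta9 replicates 1 and 2; 5, 1 and 4 without WT replicates 1, 2 and 3). With the replicate number as a block it was 0 in limma (1348 genes at an unadjusted p under 0.05); the numbers do not pair the samples. Genes of the 10 at an unadjusted p under 0.05 numbered 2 with array weights (20% of all genes), 2 with the spike-in block (18.1%), 1 with the macrophage covariate (8.61%) and 0 to 1 with samples left out (1 without WT replicate 3, 7.69%). Those without overlap numbered 1 when a gene's probe sets were averaged, 6 within the 4 arrays (where 49.1% of all genes do not overlap) and 3 to 5 with samples left out (5 without Delta9 replicate 3 or WT replicate 3, where 34.6% and 25.2% of all genes do not overlap; 24.5% to 34.6% over the 6). Their median difference was -0.035 within the 4 arrays, 0.12 with the macrophage covariate and -0.017 (without Delta9 replicate 3) to 0.12 with samples left out. The sign turned for Ulk1 with quantile normalization (-0.026) and within the 4 arrays (-0.11), with -0.048 to 0.12 when samples were left out. It turned for Tfeb with quantile normalization (-0.00052), array weights (-0.061), the 4 arrays (-0.047) and the macrophage covariate (-0.17), with -0.13 to 0.18 when samples were left out. It turned for Tfe3 within the 4 arrays (-0.024), and for Becn1 without _x_at and _s_at probe sets (0.21), with the macrophage covariate (0.067) and on probe sets 1460320_at (0.21) and 1430358_at (0.19). The cause of these shifts was not tested.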
